A study of Mus musculus with 4 samples.

Results

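The genes described here are 46 type I interferon-stimulated genes, chosen by name from what is known of the interferon response and matched by Ensembl gene ID, among the 12596 genes of a single-cell table of colon macrophages and monocytes. All 46 had a UMI in these cells. Their choice was made with earlier results of these data known. A UMI (unique molecular identifier) tags each captured RNA molecule, and counting UMIs counts molecules once. The cells came from male C57/Bl6N mice, of which 2 (mice 14 and 15) had received 12 µg of diesel exhaust particles (DEP) in 200 µL of PBS per gavage and 2 (mice 2 and 3) PBS alone. Gavage was given on 5 days per week for about 6 months, and the labels give no age. Lamina propria cells with CD11b and with Ly6C or CD64 on their surface were sorted, and each mouse was loaded into its own well, which means that well and mouse cannot be told apart.

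Type I interferons, the interferon alphas and interferon beta, are secreted upon sensing of viral or bacterial nucleic acids and bind the receptor formed by Ifnar1 and Ifnar2. The receptor's kinases activate Stat2, which joins Irf9 in the complex ISGF3. ISGF3 binds the interferon-stimulated response element (ISRE) in front of the genes described here, whose products restrict viruses, sense nucleic acids and amplify the response. In the intestine, a low tonic interferon signal is present in macrophages and monocytes without infection.

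The ISRE is shown first because it is the element that ISGF3 binds, and some of the members hold it. The members were chosen as genes of this response, so its frequency among them is not independent of the choice. In RefSeq windows of 250 bases before the start site (GRCm38.p6), 37 of the 46 members had an entry, and 12 of these (32.4%) held GAAA and GAAA separated by any 2 bases, on either strand, against 3.46% of 27025 genes. The interferon gamma element GAS, TTCNNNGAA, was present in 4 of the 37 members (10.8%) and in 8.13% of all genes, and it overlapped an ISRE in 1 window of the members. Windows of 30 bases around the motif are given below for the transcription factor Stat2, the virus-restricting effectors Ifit3, Isg15, Bst2 and Ifitm2, and the ubiquitin ligase gene Trim30a, with the motif and its overlapping copies in capitals. Each sequence is printed 5′ to 3′ on the strand of its gene and none overlapped an exon.
Stat2, chr10:128270266-128270295, plus strand: cgcaccctggTTTCAGTTTCctttccctag
Ifit3, chr19:34583397-34583426, plus strand: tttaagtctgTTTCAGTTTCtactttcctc
Ifitm2, chr7:140955988-140956017, minus strand: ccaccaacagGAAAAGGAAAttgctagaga
Isg15, chr4:156200871-156200900, minus strand: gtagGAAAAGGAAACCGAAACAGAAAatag
Bst2, chr8:71537580-71537609, minus strand: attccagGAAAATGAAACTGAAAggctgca
Trim30a, chr7:104465210-104465239, minus strand: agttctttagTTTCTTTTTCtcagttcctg
Isg15 held 3 overlapping copies, Bst2 held 2, and Stat2, Ifitm2 and Trim30a held 1. Ifit3 had 2 copies in its 250 bases, of which 1 lies in the stretch printed. A match is a run of letters and not a binding site, and a window without one says only that these letters are not in it. Of the genes that lead the results below, Ifitm3 and Irf7 had a window without a match, and Ifi27l2a and Zbp1 had no entry.

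Of the 943 deposited cells (4240334 UMIs), 643 were retained, 112 and 195 of DEP mice 14 and 15 and 166 and 170 of PBS mice 2 and 3. The other 300 were set aside because at least 3 markers of a different class were detected in them, in 283 cells markers of B or plasma cells. Among those markers are immunoglobulin transcripts, which made up 2.17% and 3.02% of UMIs of the DEP mice and 0.147% and 0.867% of the PBS mice, so that more DEP cells were left out (40.7% and 41.6% against 17% and 22.7%). With these genes taken out of the marker list, 7, 20, 5 and 5 cells of mice 14, 15, 2 and 3 were left out. Most cells set aside were thus marked by immunoglobulin transcripts and need not be B or plasma cells. The paper's own annotation removed far fewer cells as neither monocytes nor macrophages. Results are therefore also given for all deposited cells where a call differs. All 12 macrophage markers were detected in every mouse, with a summed level of 46918 and 43467 CPM (UMI counts scaled to the total of the cells summed) upon DEP and 60340 and 56334 upon PBS. The 9 monocyte markers summed to 2856 and 2530 upon DEP and 1001 and 1470 upon PBS. Cells with 2 or more UMIs of Plac8, a gene of monocytes, are called Plac8-high (158 cells), and cells with at least 0.5% of their UMIs in the complement genes C1qa, C1qb and C1qc, expressed by mature tissue macrophages, are called C1q-high (505 cells). In all, 35 cells were in both classes and 15 in neither. These classes are ranges of a count and not cell types, with 40 cells at 1 Plac8 UMI and 14 at exactly 2, and with 11 cells at between 0.4% and 0.6% C1q. Plac8-high cells made up 37.5% and 30.3% of the retained cells of the DEP mice and 17.5% and 16.5% of the PBS mice, a share that moves with the treatment and stands beside each comparison over all cells below.

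The signal was concentrated in few genes. The members held 13688 UMIs over the retained cells, from 10 to 3313 per gene with a median of 70.5, and 27 of the 46 had fewer than 100. Ifitm3 and Ifitm2, membrane proteins that restrict the entry of enveloped viruses, and Ifi27l2a, a small hydrophobic protein strongly induced by interferon, held 61.3% of them. With each cell thinned to 1000 UMIs, 25 members had a UMI in under 5% of cells in every mouse. The 5 members that reached 20% in at least 1 mouse were Ifitm3, Ifitm2, Ifi27l2a, Bst2 and Slfn2. Ifitm1, Ifitm2, Ifitm3 and Irf7 lie close together on chromosome 7 of GRCm38, with Ifitm3 at chr7:141009586-141010770 and Irf7 at chr7:141262706-141266481, both on the minus strand.

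**Figure D1:**
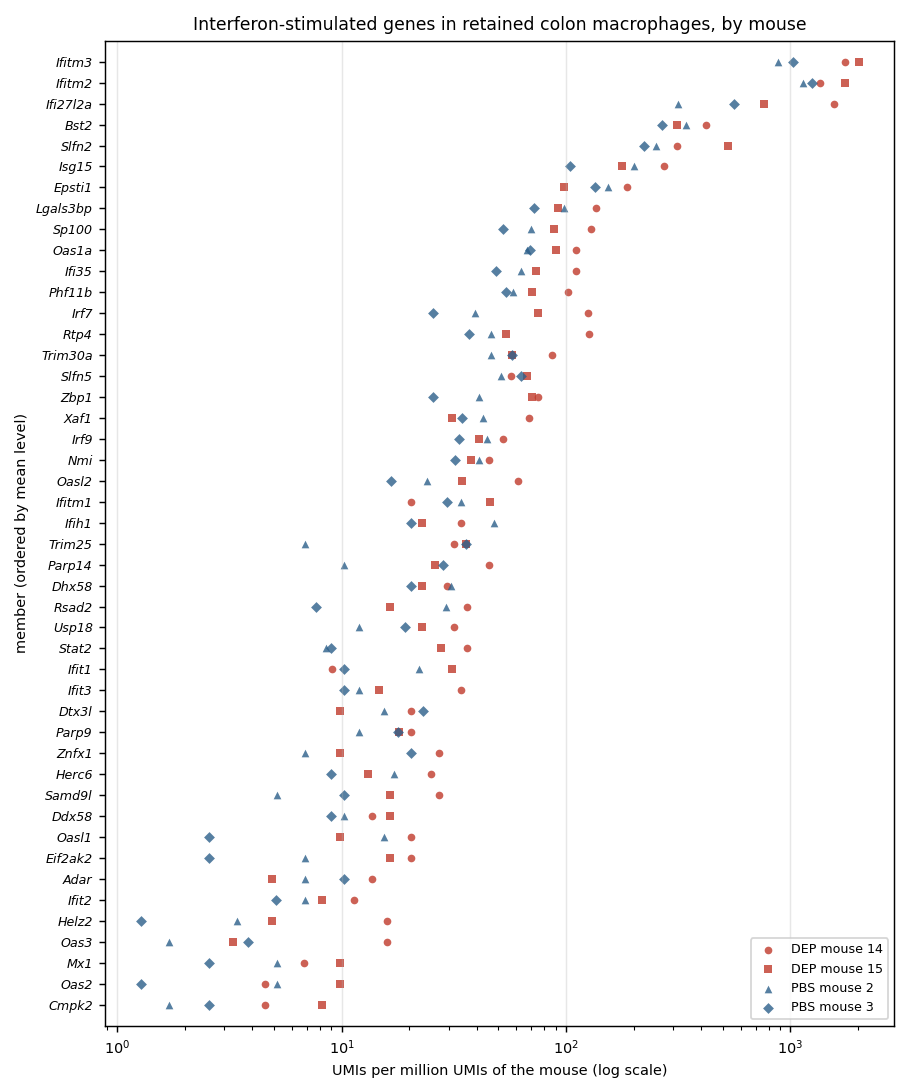
Level of each of the 46 members in CPM (UMI counts scaled to the total of the mouse) (log scale), with 1 point per mouse and 2 mice per group, members ordered by their mean. Levels run over several orders of magnitude, and for 23 members both DEP mice lie to the right of both PBS mice. In these plain levels, 15 of the 31 members tested lie so and 0 the other way, against 22.7% and 16.4% of all genes tested.

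Over all retained cells, UMIs were summed per mouse, and DEP was compared with PBS by edgeR's quasi-likelihood test with Benjamini-Hochberg adjustment over all genes tested. In such sums, more cells of a type and more RNA per cell cannot be told apart. Ifitm3, Ifi27l2a and the transcription factor Irf7 rose upon DEP. These are 3 of the 31 members tested, where 0.315% of 5086 genes were called in either direction, and no member fell. The direction was shared by most members, with 27 of 31 at a log2 fold change above 0 and a median of 0.50, against −0.01 over all genes tested. The DEP mice both exceeded the PBS mice for 14 of the 31, against 18.8% of all genes, and the reverse order was seen for none. At an unadjusted p under 0.05, 12 members were higher and none lower, against 3.89% of all genes higher. Over all 46 members, including those with too few UMIs for the test, the mean was higher upon DEP for 43 and lower for 3.

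Ifitm3 had 1747 and 2010 CPM in DEP mice 14 and 15 and 884 and 1022 in PBS mice 2 and 3. The groups did not overlap, with a log2 fold change of 0.93 (SE 0.14, edgeR adjusted p = 0.00954). Its share of cells with a UMI was 55.0% and 56.5% upon DEP and 41.3% and 42.3% upon PBS at 1000 UMIs per cell, and 73.2%, 78.5%, 64.5% and 71.8% without thinning. In 16 B-like cells among those left out, which have little Ifitm3 and a median of 8375.5 UMIs, 31.3% had a UMI, against 72.2% of the retained cells at a median of 3270.

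Ifi27l2a had 1558 and 766 CPM upon DEP and 315 and 558 upon PBS. It varied more between mice of a group than Ifitm3 did, with mouse 14 highest, and its log2 fold change was 1.34 (SE 0.27, edgeR adjusted p = 0.0452). Its thinned share of cells was 63.4% and 41.0% upon DEP and 22.8% and 36.2% upon PBS, but without thinning the groups overlapped (88.4%, 64.1%, 43.4% and 69.4%). The B-like cells, which are deeper and can respond to interferon themselves, had Ifi27l2a in 62.5% against 64.4% of the retained cells. They also had C1qa in 62.5% and Plac8 in 56.3%, so they are not free of macrophage RNA. The retained share is therefore not read as expression by itself. The same held for Irf7 (12.5%, from 2 of 16 cells, against 12.8%), Isg15 (37.5% against 28.3%) and Bst2 (81.3% against 56.3%). Per UMI, the B-like cells had 348, 14.5, 86.9 and 398 CPM of Ifi27l2a, Irf7, Isg15 and Bst2.

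Irf7, the factor that amplifies interferon alpha production, was a low-level gene with 55, 46, 23 and 20 UMIs in mice 14, 15, 2 and 3. Its level was 125 and 75.3 CPM upon DEP and 39.3 and 25.6 upon PBS, with a log2 fold change of 1.57 (SE 0.32, edgeR adjusted p = 0.0452). A UMI was present in 9.4% and 6.6% of cells upon DEP and 3.5% and 3.4% upon PBS at 1000 UMIs. Mouse 14 was again the highest of the 4, and the 10% of cells with the most Irf7 held 80.0% of its Irf7 UMIs.

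These calls were near the threshold. None of 34 members passed it when all deposited cells were used, where 1 of 5582 genes did (0.0179%). The median of the members was then 0.45, with 30 of 34 above 0. By DESeq2, Ifitm3 was the 1 member that passed. Each call was also lost in at least 1 fit that left out a mouse, although members passed in every such fit. These fits have 1 mouse in a group, so a call lost or gained does not show that it rested on that mouse. The median log2 fold change of the members was 0.32 without DEP mouse 14 and 0.67 without DEP mouse 15. It was 0.42 without PBS mouse 2 and 0.52 without PBS mouse 3.

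Among transcription factors and cofactors, all 7 members tested had a higher level upon DEP, the median of their log2 fold changes being 0.66, and Irf7 alone passed the threshold. Stat2, the interferon-specific subunit of ISGF3, had 36.3 and 27.8 CPM upon DEP and 8.6 and 9.0 upon PBS (log2 fold change 1.77, SE 0.45, edgeR adjusted p = 0.183). Sp100, a nuclear body protein, had 129 and 88.4 against 70.1 and 52.5 (0.77). Neither group pair overlapped. Of the other groups, 3 members were among the 8 with the smallest unadjusted p. Zbp1, a sensor of Z-form nucleic acids, had 74.9 and 70.4 CPM upon DEP and 41.0 and 25.6 upon PBS (1.10). Slfn2, a schlafen protein known for keeping T cells quiescent, had 313 and 529 against 251 and 223 (0.79). Rtp4, an interferon-induced chaperone of receptor transport, had 127 and 54.0 against 46.2 and 37.1 (1.02). In each of these, both DEP mice were above both PBS mice, and none passed the adjusted threshold.

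The members best known as readouts of acute interferon signalling did not pass the threshold or had too few UMIs for the test. Isg15, a ubiquitin-like modifier, had 272 and 178 CPM upon DEP and 202 and 104 upon PBS, with overlapping groups (log2 fold change 0.51). Only 2 of the 8 effectors of the Isg15 and Ifit group and 2 of the 5 OAS family members, which activate RNA degradation, had enough UMIs for the test. Of the abundant membrane proteins, Ifitm2 had 1347 and 1746 against 1141 and 1250 (0.32), and Bst2, which tethers virions to the cell surface, had 422 and 311 against 342 and 269 (0.21). Of the 7 sensors, 4 were tested and 2 were higher. Of the 7 enzymes of ubiquitin, Isg15 and ADP-ribose conjugation, 6 were tested and 5 were higher, without a call.

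Genes of the pathway outside the members were examined next. Of 55 listed ligands, receptors, kinases, transcription factors, sensors and negative regulators, 24 were tested over all retained cells. None was called, 16 had a log2 fold change above 0, and the median was 0.05. Among the genes with the smallest unadjusted p were Myd88, the adaptor of Toll-like receptors (log2 fold change 0.90), and Stat3, a factor activated by several cytokines (−0.42). Of 20 genes biased to interferon gamma, 15 were tested and 14 were higher with a median of 0.48, and none was called. Those with the smallest unadjusted p were Ifi47, Cxcl9 and Gbp2. Ifng itself had 4 UMIs, in 2 cells that were left out.

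Members differed in level between the cell classes, mostly with the higher level in Plac8-high cells. In cells that were only Plac8-high (123) or only C1q-high (470), summed per mouse with the mouse as a block, 12 of 31 members were higher and 2 lower in Plac8-high cells by edgeR, where 7.2% and 11.2% of 5153 genes were (18.4% in all). With all deposited cells, 13 were higher and 2 lower, where 18.3% of genes were called. The median log2 fold change of the members was 0.80, against −0.13 over all genes. With total UMI counts in place of TMM normalization, the median over all genes was 0.18, and 17 members were higher and 2 lower. The calls over all genes then shifted from 371 higher and 577 lower to 758 higher and 394 lower.

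Ifitm3 had the largest difference. It reached 4664, 5753, 5604 and 5449 CPM in the Plac8-high cells of mice 14, 15, 2 and 3, and 532, 605, 391 and 406 in their C1q-high cells (log2 fold change 3.16, SE 0.13, edgeR adjusted p = 1.12e-21). At 1000 UMIs per cell it was present in 95.1% to 99.2% of Plac8-high cells and 30.4% to 39.0% of C1q-high cells, so that nearly every Plac8-high cell carried it. The treatment groups overlapped within Plac8-high cells, and within C1q-high cells both DEP mice were above both PBS mice.

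Irf7 had 232, 173, 160 and 118 CPM in Plac8-high cells of mice 14, 15, 2 and 3, and 62.1, 16.7, 24.3 and 9.0 in their C1q-high cells (log2 fold change 2.42, SE 0.33). Zbp1 had 189, 113, 180 and 118 against 24.2, 45.3, 26.4 and 12.0 (2.08, SE 0.35). Ifi27l2a had 3053, 1660, 1201 and 1860 against 822, 386, 207 and 344 (1.89, SE 0.14). Sp100 was higher by a log2 fold change of 1.80 (SE 0.26), and Isg15 by 1.55 (SE 0.22). The Plac8-high cells were above the C1q-high cells of the same mouse in 4 of 4 mice for each of these 6 genes. Smaller rises passed for Slfn2 (1.35), Rtp4 (1.26), the apoptosis regulator Xaf1 (1.12), Trim30a (1.06), Ifitm2 (0.97) and Slfn5 (0.95).

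In the other direction, Bst2 had 347, 200, 240 and 178 CPM in Plac8-high cells and 456, 338, 349 and 277 in C1q-high cells of the same mice (log2 fold change −0.90, SE 0.19, edgeR adjusted p = 5.34e-04). Lgals3bp, a secreted galectin ligand, had 116, 20, 100 and 23.7 against 142, 117, 93.3 and 76.4 (−1.28, SE 0.34). In mouse 2 the plain values of Lgals3bp were close, with the Plac8-high cells above the C1q-high cells at 100 against 93.3. Of the pathway genes outside the members, 4 were higher and 5 lower of 24 tested, among the latter Irf8 (−1.26), a factor of monocyte and dendritic cell development, Socs3 (−1.08), an inhibitor of cytokine signalling, and Unc93b1 (−1.01), which traffics endosomal Toll-like receptors.

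**Figure D2:**
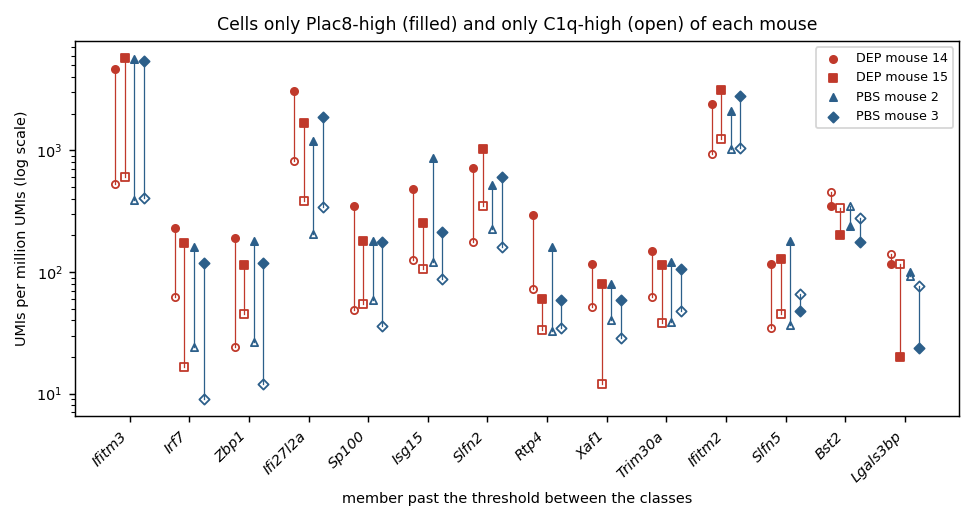
Level in CPM (log scale) of the 14 members past the threshold between the classes, in cells only Plac8-high (filled) and only C1q-high (open) of each of the 4 mice. For Ifitm3 the 2 classes are about an order of magnitude apart in every mouse, while the DEP and PBS mice overlap among the Plac8-high cells. Bst2 and Lgals3bp lie in the opposite order, except for Lgals3bp in PBS mouse 2.

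Within C1q-high cells, 2 of 31 members were higher upon DEP by edgeR, where 0.135% of 5183 genes were called. They were Ifitm3, with 948 and 780 CPM against 440 and 429 (log2 fold change 0.97, SE 0.16, adjusted p = 0.00998), and Ifi27l2a, with 1152 and 454 against 230 and 391 (1.33, SE 0.26, adjusted p = 0.0296). The median of the members was 0.40 against 0.00 over all genes, with 24 of 31 above 0. Both DEP mice were above both PBS mice for 11 of the 31 and below for 1, against 17.6% of all genes above.

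Both calls were lost when the 35 cells that were also Plac8-high were left out, where 0 of 30 members passed and the median was 0.25. Ifitm3 then had a log2 fold change of 0.51 (adjusted p = 0.752), and Ifi27l2a 1.10 (adjusted p = 0.265). The summed level of the monocyte markers in C1q-high cells was 1216 and 577 upon DEP and 357 and 483 upon PBS, and their part in the result was not tested beyond that exclusion. With all deposited cells, 0 members passed and 1 of 5722 genes did (0.0175%), and by DESeq2 no member did. Without DEP mouse 14, the log2 fold change of Ifi27l2a fell to 0.53, and without DEP mouse 15 the median of the members was 0.55.

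Members next in unadjusted p within C1q-high cells were Irf7, with 96.3 and 40.3 CPM against 28.3 and 13.2 (1.69), and Oasl2, with 64.2 and 29.1 against 20.8 and 11.7 (1.48). Zbp1 (1.29), Stat2 (1.72) and Rtp4 (0.88) followed. In the opposite direction, Ifitm1, the cell-surface member of the Ifitm family, had 20.4 and 11.2 upon DEP and 35.9 and 32.2 upon PBS (−1.15), which did not pass the adjusted threshold. It was the only member with an unadjusted p under 0.05 for a lower level, beside 11 for a higher one (3.26% of all genes higher). Of the pathway genes, none of 24 was called.

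Within Plac8-high cells, no member and no other gene was called by edgeR (0% of 4878, with 268 at an unadjusted p under 0.05) or by DESeq2 (33 at an unadjusted p under 0.05). Of 38 members tested, 30 were at a log2 fold change above 0 with a median of 0.48 against 0.03 over all genes. Both DEP mice were above both PBS mice for 15 members and below for 2, where 19.4% of all genes were above. At an unadjusted p under 0.05, 8 members were higher, against 3.38% of all genes. Without the cells that were also C1q-high, the median was 0.30, with 23 of 34 members above 0. In that setting 22 of 4444 genes passed (0.495%), 16 higher and 6 lower, and 0 of them were members. With all deposited cells, 0.0379% of genes and no member passed. The depth was low, with 28 to 59 cells per mouse, and 13 of the 46 members had no UMI in at least 1 mouse.

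The 2 members called over all cells and in C1q-high cells overlapped between the groups here. Ifitm3 had 4145 and 5402 CPM in Plac8-high cells upon DEP and 3714 and 4812 upon PBS, with overlapping groups (log2 fold change 0.19). Ifi27l2a had 3018 and 1635 against 929 and 1937, which also overlapped (0.72). Isg15 had 567 and 310 against 673 and 210 (0.02). Irf7 had 250 and 209 against 128 and 130, without overlap (0.85), and Slfn2 had 587 and 953 against 418 and 559 (0.69). Neither passed the adjusted threshold.

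Of the 8 members with the smallest unadjusted p in Plac8-high cells, 4 rested on few UMIs. Ifit3, which binds the Ifit1 complex on foreign RNA, had 11 and 6 UMIs upon DEP and 1 and 0 upon PBS, a ratio of 9.73 per UMI of depth with an exact 95% counting interval of 1.52 to 407. Parp14, an ADP-ribosyltransferase, had 10 and 6 against 0 and 1 (9.16, interval 1.42 to 384), and Samd9l, a growth inhibitor, had 6 and 5 against 0 and 1 (6.30, interval 0.915 to 271). Ifitm1 had 3 and 23 against 1 and 1 (7.44, interval 1.86 to 64.7), but 11 of the 23 UMIs of mouse 15 came from a single cell. Such intervals cover counting error only and not the spread between mice. Ifi35, a partner of Nmi in inflammatory signalling, was better covered, with 26, 22, 3 and 8 UMIs in mice 14, 15, 2 and 3 (log2 fold change 1.35). Ifit3 has a near-identical copy, Ifit3b, with 13 UMIs in all deposited cells, and counting could split reads between them, which was not measured. The same applies to Oas1a, with the copy Oas1g (98 UMIs), and to Phf11b, with Phf11a (67) and Phf11d (132).

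**Figure D3:**
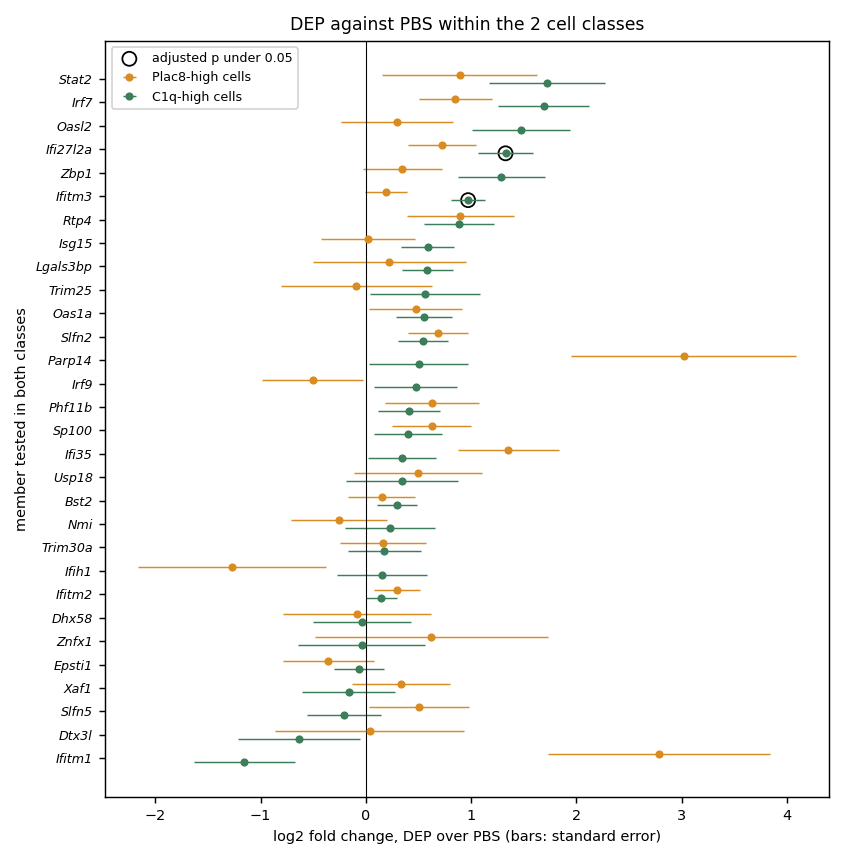
Log2 fold change of DEP over PBS (bars: standard error) of the members tested in both classes, in Plac8-high and in C1q-high cells, with a ring at an adjusted p under 0.05. Ifitm3 and Ifi27l2a are ringed in C1q-high cells, and the bars of most members reach 0 or cross those of the other class.

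The DEP effect was not shown to differ between the classes for any member. In the fit of the difference between the exclusive classes, 0 of 31 members passed by edgeR, where 0.31% of 5153 genes did. The member with the smallest unadjusted p was Ifitm1 (3.88, SE 1.08, adjusted p = 0.134), whose levels were 21.1 and 153 CPM upon DEP and 20 and 11.8 upon PBS in Plac8-high cells, and 20.7 and 11.9 against 38.5 and 32.9 in C1q-high cells. When immunoglobulin genes were not used to leave out cells, an alternative chosen after seeing the data, Ifitm1 passed (3.62, edgeR adjusted p = 0.0405), and over the 5 settings in which it was tested its adjusted p lay between that value and 0.261.

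The summed level of all 46 members is given here beside the class shares, which were higher for Plac8-high cells upon DEP. Over all retained cells it was 7687 and 6945 CPM upon DEP and 4354 and 4493 upon PBS, a ratio of the means of 1.65. In cells only Plac8-high it was 15097 and 14366 against 13389 and 12804 (1.12), and in cells only C1q-high 4484 and 4025 against 3371 and 3272 (1.28). When both classes were given equal weight in every mouse, the sums were 9790 and 9196 against 8380 and 8038, a ratio of 1.16. The DEP mice were above the PBS mice in each of these sums, by less within classes than over all cells. Ifitm3, Ifitm2 and Ifi27l2a, which held 61.3% of the member UMIs over the retained cells, weigh heavily in such sums. An exact two-sided permutation test over these 4 mice cannot give a p below 0.333.

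At equal class weights, Ifitm3 was 2598 and 3179 CPM upon DEP and 2997 and 2927 upon PBS, with overlapping groups and a log2 ratio of the means of −0.04, against 0.98 with the classes as they were. Irf7 was 147 and 95 against 92.2 and 63.7 and Stat2 43.6 and 31.9 against 23.1 and 3.7, both still without overlap. Slfn2 was 446 and 685 against 373 and 383. Ifi27l2a, with 1937 and 1023 against 704 and 1102, overlapped. Of the 31 members tested, 22 then had a higher mean upon DEP and the median log2 ratio was 0.36, against 28 and 0.56 with the classes as they were, and both DEP mice were above both PBS mice for 6 and below for 1. Over all 5086 genes these shares were 17.2% and 18%, so that the count of 6 of 31 is near the background.

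**Figure D4:**
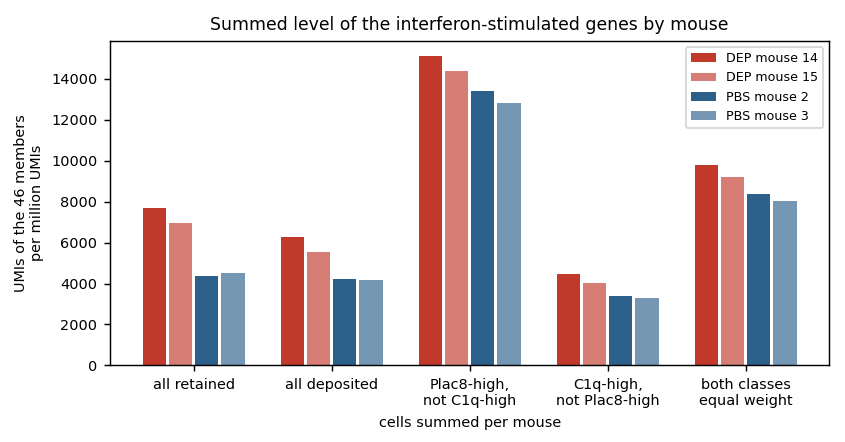
Summed level of the 46 members in CPM, 1 bar per mouse, in the cell sets named on the axis. Sums in Plac8-high cells exceed those in C1q-high cells in every mouse, and the DEP bars stand above the PBS bars by a ratio of 1.65 over all retained cells.

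Whether a few cells or most cells carried the signal depended on the gene. Ifitm2 had a UMI in most cells of every mouse at 1000 UMIs per cell (64.3%, 72.7%, 62.9% and 65.6% in mice 14, 15, 2 and 3), Ifitm3 in nearly all cells only Plac8-high but in a minority of those only C1q-high, as given above. Cells without a UMI of any member made up 2.68%, 3.08%, 3.61% and 7.06% of the same mice. For 22 core members, a list chosen to leave out transcripts that resting macrophages hold at a high level, the picture was the reverse. Among them are Isg15, the Ifit and Oas genes, Mx1, Rsad2 and Irf7. The list does not follow level in these cells, with 428 UMIs for Isg15 in it and 13 for Helz2 outside it. At 1000 UMIs per cell, no core UMI was found in 52.7% and 62.1% of cells upon DEP and 60.8% and 64.1% upon PBS. These shares were smaller without thinning. The 10% of cells with the most core UMIs held 51.2%, 58.0%, 54.1% and 53.6% of them. The variance of core UMIs per cell was 3.43, 3.02, 3.25 and 2.38 times the mean, where counts drawn at 1 rate would give 1.

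Cells with 3 or more different core genes were few in both groups. They made up 9.82% and 6.67% of cells upon DEP (11 and 13 cells) and 4.22% and 4.12% upon PBS (7 and 7 cells). Together these 38 cells, 5.91% of the total, held 41.1% of core UMIs. Their median depth was 3138 against 3276 UMIs of the other cells over all mice, but within mice 14, 15 and 2 they were the deeper ones (4038 against 3591, 2870 against 2838 and 2939 against 2636), and in mouse 3 the shallower (2781 against 4211). Of the 38 cells, 20 were only Plac8-high, 5 in both classes and 13 only C1q-high. Among all cells only Plac8-high they were 6 of 29, 8 of 54, 4 of 16 and 2 of 24 in mice 14, 15, 2 and 3. The groups overlapped in this share. Among all cells only C1q-high they were 3 of 68, 4 of 131, 2 of 133 and 4 of 138, which rests on 2 to 4 cells per mouse. By construction the 38 cells hold core genes, with Isg15 in 52.6% of them and 8.76% of the others, Irf7 in 39.5% and 2.81%, and Zbp1 in 36.8% and 2.15%.

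**Figure D5:**
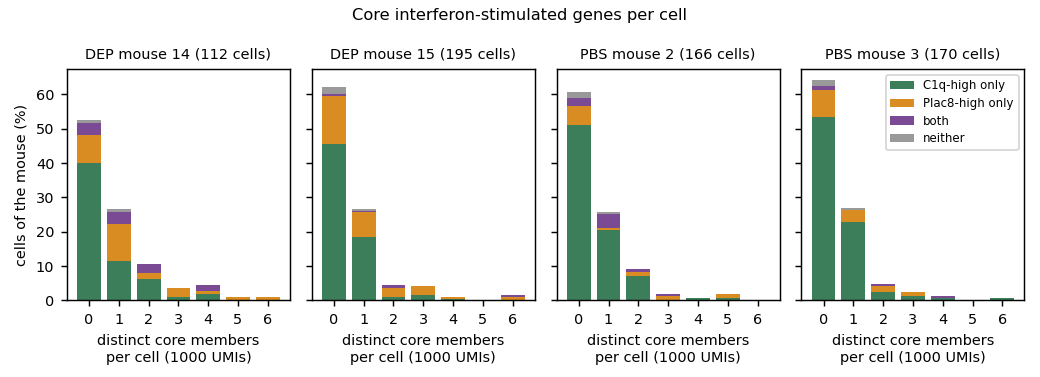
Share of the retained cells of each mouse (%) by the number of distinct core members with a UMI after thinning to 1000 UMIs, with colours for the cell classes. At least 52.7% of cells stand at 0 in every mouse, and a tail with 3 or more holds 4.12% to 9.82% of cells, in both classes.

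The summed core level over all retained cells was 1218 and 813 CPM upon DEP and 737 and 490 upon PBS, a ratio of 1.65 without overlap. Within cells only Plac8-high (2327, 1347, 2522 and 1019 in mice 14, 15, 2 and 3) and within cells only C1q-high (701, 491, 549 and 407), the groups overlapped. In Plac8-high cells the high value of PBS mouse 2 rested in part on 1 cell.

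That cell was the one source of interferon alpha UMIs in the table. Of 20 interferon ligand genes 5 were in the table, and Ifna1 (4 UMIs), Ifna12 (2) and Ifna16 (10) were found in a single Plac8-high, not C1q-high cell of PBS mouse 2, which also had 13 UMIs of Ifnb1 among its 2939 UMIs. Interferon alpha genes are near-identical copies, so that which of them was read is uncertain. The cell had UMIs of 16 members, among them 21 of Isg15, 10 of the antiviral enzyme Rsad2, 6 of the RNA sensor Ifih1 and 3 of Ifit1, and of the chemokines Ccl4 (81), Ccl3 (37) and Cxcl10 (9), genes named after their values were seen. It had UMIs of 5 of 9 monocyte markers and of 0 of 7 markers of plasmacytoid dendritic cells, the classical interferon alpha producers. Without it, Isg15 in the Plac8-high cells of mouse 2 went from 673 to 445 CPM, Rsad2 from 139 to 24.0 and Ifih1 from 104 to 36.1. Over all retained cells, 1 member, Ifitm3, then passed in the comparison of DEP with PBS. Ifnb1 had 60 UMIs in 33 deposited cells, of which 31 had 1 to 3.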

How the data were processed

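Lamina propria cells were captured with the 10x Genomics 3′ v2 kit. Per the labels and the methods, reads were mapped to mm10 (Ensembl annotation) by Cell Ranger with STAR 2.6.1a. The authors removed cells by depth, number of genes and mitochondrial content and deposited raw UMI counts per gene and cell for the 4 mice, without normalization. Their methods report that a search for doublets left no suspicious cells, and no caller was run here. A 3′ count reads the ends of transcripts, so that levels are given per UMI and not per length, and 1 barcode was shared between mice. No column was without a sample.

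Cells in which at least 3 markers of a different class were detected were set aside. Mice 14, 15, 2 and 3 kept 440856, 611044, 584684 and 781008 UMIs, respectively, and intervals cover counting error only. Counts were summed per mouse, since cells are not replicates and 1 mouse is 1 sample. They were tested with edgeR 4.0.16 in R 4.3.3 (TMM, quasi-likelihood test, adjusted p under 0.05) for genes above 1 CPM in at least 2 libraries and with a UMI in at least 5% of cells. CPM in the text is the plain UMI count scaled to the total UMIs of the cells summed, without TMM. Shares of cells were computed in Python 3.11.15 as the mean probability of a UMI at 1000 UMIs per cell. Tests were tested on simulated data. DESeq2 1.42.0, other normalizations, filters, class limits and each mouse left out were the alternatives. Promoter windows came from RefSeq, GRCm38.p6.

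The members and lists were chosen with earlier results of these data known. Named are the members past the threshold, the 8 with the smallest unadjusted p per comparison of DEP with PBS, the 6 with the highest level, the 5 with the largest fold each way among those called between classes, and up to 3 pathway genes per comparison, of which 1 is not reported here. Other genes, such as those of the interferon alpha cell and the less changed members between classes, were named after their values were seen.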

Additional observations from a re-analysis of the deposited data

Results flagged for a closer look

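UMIs of the members were also found in the cells set aside, which entered the comparisons only where all deposited cells were used. In the 300 cells left out by markers of other classes, the 46 members summed to 5084 and 4368 CPM upon DEP and 3818 and 3628 upon PBS, a ratio of the means of 1.27. The values rest on 77 and 139 cells upon DEP and 34 and 50 upon PBS, the groups did not overlap, and no test was run on them.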

How the results depend on the processing

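The median log2 fold change of the members kept its sign in every setting tried for the 3 comparisons of DEP with PBS and for that between classes, and of 480 values of single named members none reversed, 418 stayed on the same side of the threshold, 52 lost it and 10 gained it, while the counts of members past the threshold moved. A named member that was not called at first and stayed uncalled counts as staying on the same side, as for most in Plac8-high cells. The losses can come only from the members called, which were 3 over all retained cells, 2 in C1q-high cells and 14 between classes. For DEP against PBS over all retained cells (3 members), 0 passed with all deposited cells, with immunoglobulin genes not used to leave out cells and with cells thinned to 1000 UMIs. With DESeq2, with upper quartile scaling, without the 10% of cells with the most core UMIs and without the interferon alpha cell, 1 passed. The setting without immunoglobulin genes, that without the interferon alpha cell and all deposited cells for the class comparison were chosen after seeing the data. Leaving out each mouse in turn gave a median of 0.32 to 0.67, the lowest without DEP mouse 14 and the highest without DEP mouse 15. In C1q-high cells (2 members), 0 passed with all deposited cells, without immunoglobulin genes, without Plac8-high cells, with DESeq2 and thinned, and 1 with upper quartile scaling. With each mouse left out, the median there was 0.27 to 0.55, the highest without DEP mouse 15. In Plac8-high cells (0 members), the median of 0.48 became 0.27 at 3 or more Plac8 UMIs, 0.73 with all deposited cells, 0.71 without immunoglobulin genes and 0.30 without C1q-high cells. With mice left out it was 0.19 to 0.63, the lowest without DEP mouse 14. Between classes (14 members), DESeq2 gave 9 and thinned counts 8 of 14 tested, and total UMI counts gave a median of 1.10. The difference of the DEP effect had 0 members, and 1 without immunoglobulin genes. The cause of these changes was not tested.

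The ratio of summed levels, 1.65 over all retained cells, was 1.40 with all deposited cells and 1.16 at equal class weights. Thinned shares of cells had both DEP mice above both PBS mice for 23 of 46 members and below for 1, and unthinned shares for 13 and 1. Among the 31 members tested these were 16 and 8 above, against 22.1% and 7.35% of all genes tested. In cells only Plac8-high, 16 of 46 were above and 2 below thinned, and 7 and 6 unthinned. Of the 31 tested, 9 were above and 2 below thinned, against 17% and 16.5% of all genes tested. Unthinned these were 3 and 4, against 11.6% and 21.6%. In cells only C1q-high, 11 of 46 were above and 6 below thinned, and 5 and 1 unthinned. Of the 31 tested, 7 were above and 3 below thinned, against 17.1% and 17.3% of all genes tested. Unthinned these were 3 and 0, against 5.88% and 21.4%. Means over mice of the spread of core UMIs were 59.9% of cells without a UMI (26.3% without thinning, 4.11% for all members), 6.21% with 3 or more genes (28.8% and 64.5%), 54.2% of UMIs in the top 10% of cells (47.9% and 31.8%, and 49.95% with a second seed) and a variance to mean ratio of 3.02 (9.36 and 5.43).

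No paired analysis of DEP against PBS was made, because the groups are different animals and no label pairs them. Between classes, where the mouse is a block, the fit with no replicate block gave 14 members and a median of 0.92. The limits are 2 mice per group, 28 to 59 Plac8-high cells per mouse and 27 members under 100 UMIs.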
